A study of Mus musculus with 48 samples.

Results

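The comparison described here is of hearts that lost E4bp4 in cardiomyocytes, labelled CEK, with hearts that carry the same Cre transgene and an intact E4bp4 gene, labelled Cre CON. The libraries were taken by their titles, 6 CEK and 6 Cre CON of the 48 libraries in the series. CEK mice are E4bp4 flox/flox with 1 allele of a Cre recombinase driven by the Myh6 (MHCα) promoter, which is active in cardiomyocytes. Cre CON mice carry 1 allele of the same Cre and no floxed gene. The littermates of each group without Cre, E4BP4 FLOX (E4bp4 flox/flox) and WT, entered the same model with 6 libraries each, because the E4bp4 line and the Cre line differ with and without the knockout. All animals were male C57BL/6 mice, each library came from the biventricular tissue of 1 animal and is called a biological replicate in the labels, and neither the age nor the time of day of collection is given in the sources used here.

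E4BP4, encoded by Nfil3, is a basic leucine zipper repressor that binds D-box elements. The PAR bZIP activators DBP, TEF and HLF bind the same elements, and the balance between them is an output arm of the circadian clock. The clock itself runs on BMAL1 (Arntl) and CLOCK, which activate E-box genes such as the Per, Cry and Nr1d genes, and on the RORE elements through which the ROR and REV-ERB receptors act on Arntl, Clock and Nfil3. In the heart, these outputs are known to reach substrate metabolism, ion channels and signalling.

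The sequences of 4 promoters are printed to show the D-box in promoters of clock genes that hold it, and beside them the same window of a pair of genes that were clearly higher in CEK hearts. Each runs from 250 bases before to 50 bases after the annotated start of the gene in RefSeq, build GRCm38.p6, 5′ to 3′ on the strand of the gene. Capitals mark the D-box motifs TTATGTAA, TTATGCAA and TTACGTAA and the E-box CACGTG, searched on both strands. The Per3 promoter (chr4:151044616-151044915, minus strand) and the first of the Per1 promoters (chr11:69098699-69098998, plus strand) hold D-boxes, while those of Nampt (chr12:32820085-32820384, plus strand) and Gm33424 (chr13:52985715-52986014, plus strand) hold none of the 4 motifs in this window. Per1 and Gm33424 each have a further start in the table, not printed, whose window holds none of them.
Per3: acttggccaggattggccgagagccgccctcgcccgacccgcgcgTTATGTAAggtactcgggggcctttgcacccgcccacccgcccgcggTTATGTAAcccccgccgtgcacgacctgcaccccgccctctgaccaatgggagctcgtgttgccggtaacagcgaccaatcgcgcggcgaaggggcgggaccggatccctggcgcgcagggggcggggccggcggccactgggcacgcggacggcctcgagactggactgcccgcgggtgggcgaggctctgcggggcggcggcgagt
Per1: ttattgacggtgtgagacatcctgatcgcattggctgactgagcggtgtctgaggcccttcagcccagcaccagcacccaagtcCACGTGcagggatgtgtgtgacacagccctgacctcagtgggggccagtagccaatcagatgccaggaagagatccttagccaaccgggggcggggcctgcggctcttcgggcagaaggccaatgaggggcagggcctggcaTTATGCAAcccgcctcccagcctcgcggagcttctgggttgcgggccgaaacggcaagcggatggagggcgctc
Nampt: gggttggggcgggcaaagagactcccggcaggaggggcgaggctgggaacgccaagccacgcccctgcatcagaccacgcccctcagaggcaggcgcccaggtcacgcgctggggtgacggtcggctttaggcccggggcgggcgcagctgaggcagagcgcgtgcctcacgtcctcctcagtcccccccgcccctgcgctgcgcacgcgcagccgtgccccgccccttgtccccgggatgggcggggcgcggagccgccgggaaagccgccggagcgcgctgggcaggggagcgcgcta
Gm33424: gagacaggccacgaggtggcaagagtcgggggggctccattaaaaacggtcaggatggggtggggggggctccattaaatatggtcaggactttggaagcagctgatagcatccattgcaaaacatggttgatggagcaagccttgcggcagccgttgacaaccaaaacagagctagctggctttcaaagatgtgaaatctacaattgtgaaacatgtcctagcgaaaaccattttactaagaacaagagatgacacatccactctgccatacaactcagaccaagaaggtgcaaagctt

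The libraries of the E4bp4 line differed in composition from those of the Cre line, so these values come before the genes. Assigned counts ranged from 17291700 to 24440203 in CEK libraries and from 14828331 to 19537993 in Cre CON libraries. The share of read records assigned to a gene was 61.8% ± 4.20 in CEK and 69.9% ± 0.563 in Cre CON (SD, n = 6 each). A single gene, ENSMUSG00000119584, which the annotation used here does not name, took 17.9% ± 10.2 of assigned counts in CEK (4.58 to 33.4%) and 0.883% ± 0.138 in Cre CON (0.699 to 1.07%). The mitochondrial ribosomal RNAs took 5.64% ± 2.79 in CEK and 1.54% ± 0.163 in Cre CON. The groups did not overlap in these 3 measures. The floxed hearts without Cre were displaced the same way, with 10.3% of counts in ENSMUSG00000119584 against 0.737% in WT, so the line differed in this way without Cre as well. Expression below is in CPM, counts scaled to library size, here by TMM, which sets the libraries to a common level without the few dominant genes. The median biological coefficient of variation was 20.9% among CEK libraries and 13% among Cre CON libraries.

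**Figure D1:**
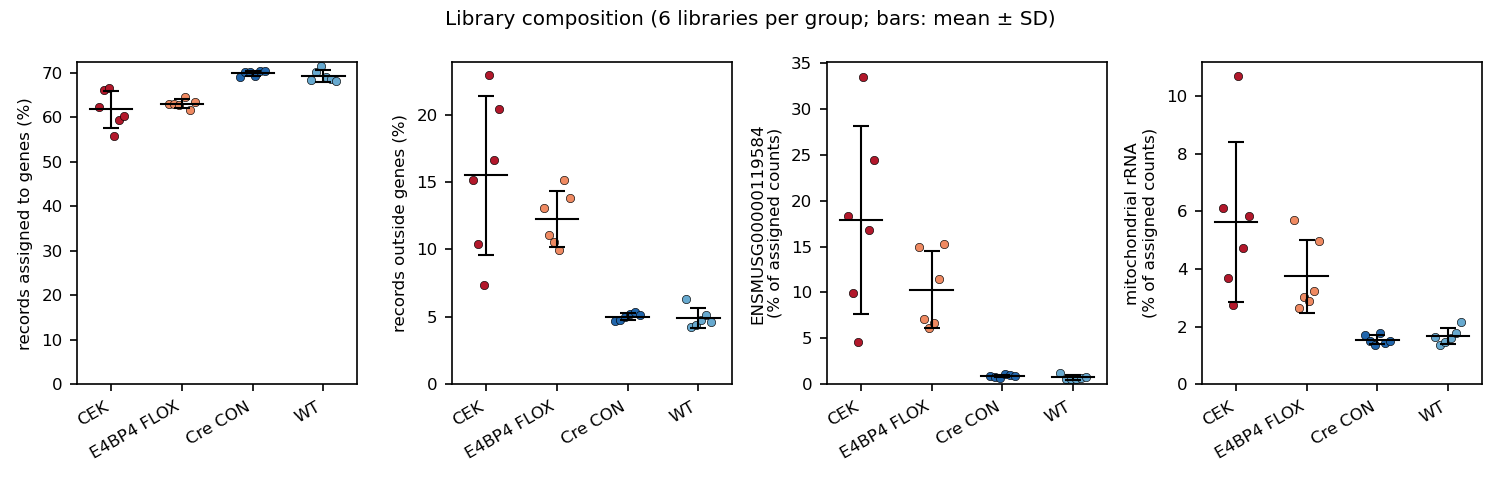
Shares of each library in percent, 1 point per animal, for CEK, E4BP4 FLOX, Cre CON and WT, with bars for the mean ± SD (n = 6). All CEK libraries lie above all Cre CON libraries in the share of ENSMUSG00000119584, and the E4BP4 FLOX libraries lie above the WT libraries.

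Between CEK and Cre CON hearts, 1084 of 14962 genes tested (7.25%) passed an adjusted p of 0.05 in edgeR's quasi-likelihood test, 609 higher (4.07%) and 475 lower (3.17%) in CEK. Most changes were small: 134 of the higher and 22 of the lower genes exceeded 2-fold. The 6 CEK libraries lay wholly above or below the 6 Cre CON libraries in 305 of the called genes (28.1%), against 378 (2.53%) of all genes tested, 210 with CEK above (1.4%) and 168 with CEK below (1.12%). The count depended on the libraries, and was 484 without CEK replicate 4, 647 without CEK replicate 6, 672 without Cre CON replicate 1, 654 without Cre CON replicate 2, 698 without Cre CON replicate 3 and 1631 without CEK replicate 2. CEK replicates 4 and 5 had the lowest shares of records assigned in the group, 55.8% and 59.3%, and without both of them 251 genes were called. The test uses a spread estimated over all 24 libraries, less than that among CEK libraries alone. In a fit of only the 12 libraries compared, 256 genes were called.

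The same 2 lines without Cre, E4BP4 FLOX against WT, share no library with this comparison and differ in the line but not in the loss of E4bp4. There, 31 genes passed the test (0.207%), 25 higher (0.167%) and 6 lower (0.0401%), and 33 without E4BP4 FLOX replicate 3. With any of the other 11 libraries of these groups left out, the count was between 11 and 19. Of the 1084 genes called between CEK and Cre CON, 982 (90.6%) had the same sign in E4BP4 FLOX against WT, against 64.1% of all genes tested. In 24 genes, 2.21% of the first list and 77.4% of the second, both comparisons made a call, the same way in each, and no gene was called in opposite directions. The median ratio of the line difference to the CEK difference over the 1084 genes was 0.37 on the log2 scale. For most of these genes, then, a difference of the same sign and smaller size was present between floxed and WT hearts that both have E4bp4. Over all genes the 2 sets of log2 fold changes had a Pearson r of 0.56 as a description across genes, which are not independent, and 0.35 over protein-coding genes.

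**Figure D2:**
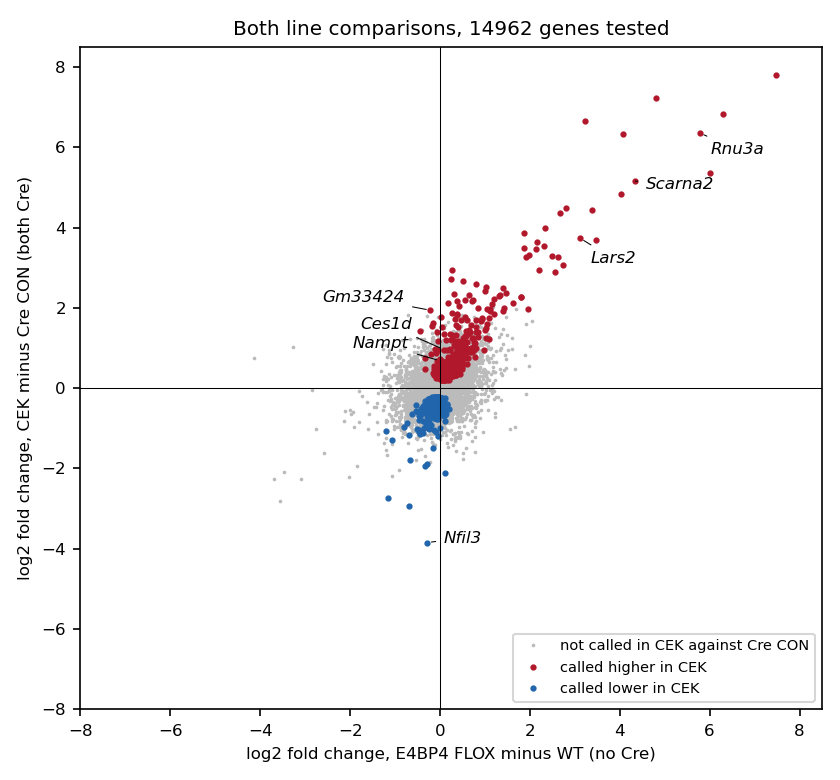
Log2 fold change of CEK over Cre CON (vertical) against that of E4BP4 FLOX over WT (horizontal) for each of 14962 genes tested, red where called higher and blue where called lower in CEK. Of the called genes 90.6% have the same sign on both axes, while Nfil3 at -3.85 lies far from the line difference of -0.28.

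A test of the difference itself, the Cre effect in the E4bp4 line minus the Cre effect in the Cre line, asks for each gene whether CEK minus Cre CON exceeds the line difference. It called 2 of 14962 genes (0.0134%), Nfil3 and Nampt, with 908 genes at an unadjusted p under 0.05. DESeq2 called 4 genes in the same contrast. The count was 1, with Nampt lost, without CEK replicate 1, CEK replicate 3 or Cre CON replicate 2, 3 or 6, and 3 without Cre CON replicate 1.

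Nfil3 (ENSMUSG00000056749), the targeted gene, was at 0.460 to 0.690 CPM in CEK hearts (median 0.661), against 6.61 to 11.2 CPM in Cre CON hearts (median 9.29). The groups lay far apart, with all CEK hearts below 1 CPM. The mean was 0.619 ± 0.0911 CPM in CEK and 9.17 ± 1.65 CPM in Cre CON (SD, n = 6 each), so that the log2 fold change was -3.85 (SE 0.18; adjusted p = 8.5e-17 in edgeR). E4BP4 FLOX hearts averaged 7.77 CPM and WT hearts 9.43 CPM, a log2 difference of -0.28, and the difference of Cre effects was -3.57 (adjusted p = 1.1e-12). Nfil3 was called in all 26 alternative settings. Which exons the floxed allele removes is not given in the sources used here, so the counts that were left in CEK hearts cannot be assigned to parts of the gene. In bulk tissue, fewer cells of a type and less RNA per cell cannot be told apart, here and in all results that follow.

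Myh6, the gene whose promoter drives Cre, averaged 17422 CPM in CEK and 17852 CPM in Cre CON (log2 fold change -0.04), with overlapping groups.

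Nampt encodes nicotinamide phosphoribosyltransferase, the rate-limiting enzyme of NAD salvage and a known E-box target of the clock. It ranged from 232 to 297 CPM in CEK hearts (median 260) and from 132 to 202 CPM in Cre CON hearts (median 159.1). Each CEK heart was above each Cre CON heart. The means were 260 ± 22.6 and 162 ± 25.9 CPM (CEK and Cre CON, SD, n = 6 each), which is 0.68 on the log2 scale (SE 0.08; adjusted p = 7e-06 in edgeR). Floxed and WT hearts without Cre had nearly the same mean, 178 and 177 CPM, and the difference of Cre effects was 0.67 (adjusted p = 0.024). Nampt was the only gene besides Nfil3 to pass that test, but its call in it was lost without CEK replicate 1 or 3 or Cre CON replicate 2, 3 or 6, with all 48 libraries in the fit and with a replicate block.

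Ces1d encodes a carboxylesterase that hydrolyses triglycerides. Its level was 292 to 314 CPM in CEK hearts (median 297), with 103.4 to 195 CPM in Cre CON hearts (median 160). The CEK values were close together, and all lay above the Cre CON values. The log2 fold change was 0.96 (SE 0.14, edgeR adjusted p = 0.00015), against a line difference of 0.09. The difference of Cre effects was 0.87 and missed the threshold (adjusted p = 0.36). Ces1d has near-identical neighbours among the Ces1 genes, and how the counting treated shared reads is not given in the sources used here. RefSeq's promoter table gave no entry for it.

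Gm33424 (ENSMUSG00000113101), a long intergenic noncoding RNA, lies beside Nfil3 in the annotation order on chromosome 13, on the opposite strand. It was at 5.09 to 9.74 CPM in CEK hearts (median 5.90), against 1.13 to 3.05 CPM in Cre CON hearts (median 1.45). The groups did not overlap, and the log2 fold change was 1.94 (SE 0.32, edgeR adjusted p = 0.00045), with -0.21 between floxed and WT hearts. Its level outside the CEK group was near 2 CPM, with means of 1.97 in E4BP4 FLOX, 1.74 in Cre CON and 2.29 in WT. Whether the counting used strand is not given, so reads of Gm33424 and of a gene that overlaps it cannot be told apart. Of the 20 tested genes on either side of Nfil3, 40 in all, Gm33424 was the 1 called (2.50%, against 7.25% of all genes), and the median log2 fold change of the 40 was -0.01. The count was 2 without CEK replicate 2 or 3.

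Atp8a1, a phospholipid flippase, was at 33.5 to 41.5 CPM in CEK hearts (median 38.9), against 22.9 to 30.8 CPM in Cre CON hearts (median 26.2). It, too, had groups that did not overlap, and the log2 fold change was 0.50 (SE 0.09, edgeR adjusted p = 0.002). Raph1, an adaptor of the actin cytoskeleton, ranged from 92.3 to 125 CPM in CEK hearts (median 107) and from 71.7 to 86.0 CPM in Cre CON hearts (median 77.9), a log2 fold change of 0.45 (adjusted p = 0.00045). The line difference was 0.19 for Raph1 and 0.14 for Atp8a1. With an offset for GC content and length, Raph1 no longer passed.

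**Figure D3:**
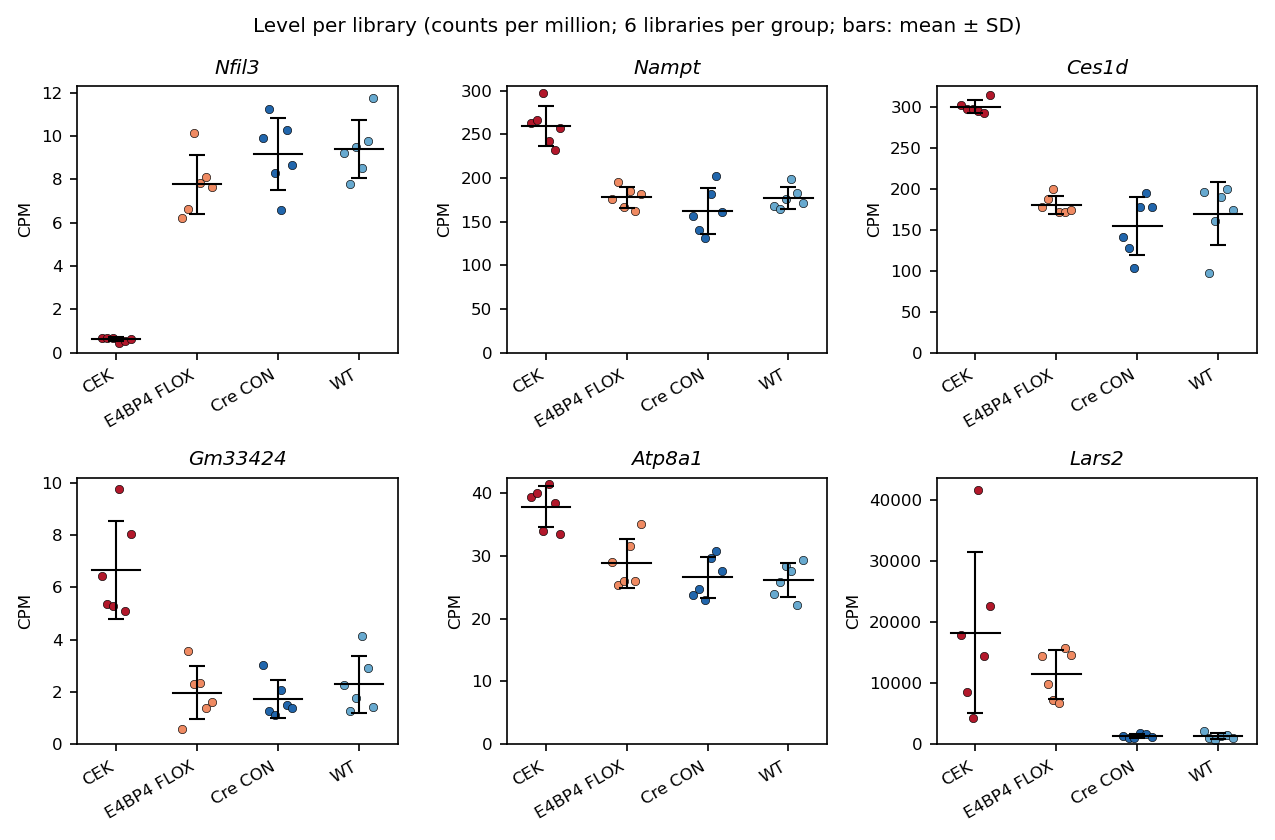
CPM of each library for Nfil3, Nampt, Ces1d, Gm33424, Atp8a1 and Lars2 in CEK, E4BP4 FLOX, Cre CON and WT, 1 point per animal with bars for the mean ± SD (n = 6). Nampt in the 6 CEK hearts lies at 232 to 297 CPM, above the 132 to 202 CPM of the Cre CON hearts, and Nfil3 in CEK lies below 1 CPM.

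Nampt, Ces1d, Gm33424, Atp8a1 and Raph1 belong to a set of 39 genes called between CEK and Cre CON and called the same way between CEK and its E4BP4 FLOX littermates. A further condition, no call between E4BP4 FLOX and WT, removed no gene, as only 0.207% of all genes were called there. CEK against Cre CON and CEK against E4BP4 FLOX use the same CEK libraries, so the second is not independent of the first. CEK against E4BP4 FLOX called 131 genes (0.876%), 52 higher (0.348%) and 79 lower (0.528%). That count was 68 without CEK replicate 4, 41 without CEK replicate 6, 78 without CEK replicate 1 or 5, 239 without CEK replicate 2 and 352 without CEK replicate 3. It was 25 in a fit of its 12 libraries alone and 9 in limma voom with a variance weight per group, so membership of the set depends on the pooled spread. Besides Nfil3, 13 of the genes were higher in CEK than in Cre CON, by 0.36 to 1.94 on the log2 scale, and 25 were lower, with log2 fold changes of -0.24 to -0.68. Their line differences ran from -0.33 to 0.31. The 6 CEK and 6 Cre CON libraries did not overlap in 12 of the 38, beside 28.1% of all 1084 genes called between CEK and Cre CON, from which the 38 were chosen.

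Among the higher genes were also Mtus2, which encodes a microtubule-associated protein, with means of 195 CPM in CEK and 149 CPM in Cre CON (log2 fold change 0.39, edgeR adjusted p = 0.0044). Zfp367, a zinc-finger gene, averaged 21.6 CPM in CEK and 16.2 CPM in Cre CON (0.42). Ddx60, an RNA helicase gene induced by interferon, averaged 4.16 CPM in CEK and 2.10 CPM in Cre CON (0.96), and its call was lost without CEK replicates 4 and 5. That none of the 3 passed in E4BP4 FLOX against WT was a condition of the set and not a further result.

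Several of the lower genes act in muscle or in metabolism. Dmpk, the kinase gene whose repeat expansion causes myotonic dystrophy, ranged from 363 to 554 CPM in CEK hearts (median 442) and from 604 to 702 CPM in Cre CON hearts (median 635). The groups did not overlap (log2 fold change -0.51, SE 0.09, edgeR adjusted p = 0.00066; line difference -0.15). Rbm38, an RNA-binding protein involved in muscle splicing and in p21 mRNA stability, was at 48.9 to 82.8 CPM in CEK and 85.3 to 108.2 CPM in Cre CON (-0.58, adjusted p = 0.00089), again without overlap. Bcl9l, a co-activator of β-catenin, was at 19.9 to 35.9 CPM in CEK and 33.5 to 44.2 CPM in Cre CON, with overlap (-0.47, adjusted p = 0.008).

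Slc2a4, which encodes the insulin-responsive glucose transporter GLUT4, was at 281 to 381 CPM in CEK hearts (median 344), against 394 to 459 CPM in Cre CON hearts (median 408). Every CEK value was below every Cre CON value. The log2 fold change was -0.31 (SE 0.07, edgeR adjusted p = 0.011), with -0.29 against E4BP4 FLOX and -0.08 between the lines. Also lower against both controls were Bckdha, a subunit of the branched-chain ketoacid dehydrogenase (30.1 CPM in CEK and 39.8 CPM in Cre CON, -0.40), Kcnj11, the pore subunit of the ATP-sensitive potassium channel (124.4 and 150 CPM, -0.27), Acacb, which makes the malonyl-CoA that restrains fatty acid entry into mitochondria (223 and 268 CPM, -0.27), and Dgat2, which completes triglyceride synthesis (439 and 521 CPM, -0.25). These 5 falls were small beside those of Nfil3 or the rises of Nampt and Ces1d. The call was lost for Bckdha without Cre CON replicate 1, for Kcnj11 without CEK replicate 4 or 6 or Cre CON replicate 1 or 2, and for Acacb without CEK replicate 4, 5 or 6 or Cre CON replicate 1, 2, 5 or 6, while Dgat2 stayed called only without CEK replicate 2 or 3 or Cre CON replicate 3. None of the 5 passed without CEK replicates 4 and 5 together, in a fit of the 12 libraries alone, or with an offset for GC content and length.

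GC content moved with these directions: of the protein-coding genes in the set other than Nfil3, 8 of the 12 higher lay in the 3 deciles of genes with the lowest GC content, and 19 of the 23 lower in the 3 with the highest. Nampt lay in decile 1, Atp8a1 in decile 3, Ces1d in decile 5, and Dmpk and Rbm38 in decile 10. With an offset for GC content and length in the fit, Nampt, Ces1d, Gm33424, Atp8a1, Mtus2, Bcl9l, Dmpk and Rbm38 were still called, while Raph1, Slc2a4, Bckdha, Kcnj11, Acacb, Dgat2 and Tmem82 were not.

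Of the clock genes 3 of 24 were called (12.5%, against 7.25% of all genes), a share that counts the deleted gene Nfil3 itself, which was lower. Besides Nfil3 only Nr1d2 and Rora were called, both higher. The median log2 fold change of the list was -0.00 beside 0.01 for all genes. Rora, a nuclear receptor that activates RORE elements, was at 30.2 to 55.1 CPM in CEK hearts (median 37.6), against 26.7 to 29.97 CPM in Cre CON hearts (median 27.9). No value overlapped, and the log2 fold change was 0.50 (SE 0.11, edgeR adjusted p = 0.0048). Floxed hearts without Cre were also above WT in Rora, 36.1 and 28.97 CPM. Nr1d2, the REV-ERBβ repressor, averaged 97.4 CPM in CEK and 76.6 CPM in Cre CON (0.35, adjusted p = 0.019), beside 97.1 CPM in E4BP4 FLOX and 82.9 CPM in WT. The Nr1d2 call was lost without CEK replicate 4 or Cre CON replicate 2, and those of Nr1d2 and Rora without CEK replicates 4 and 5 together.

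The core activators and repressors of the clock did not pass the test. Arntl averaged 0.655 ± 0.533 CPM in CEK and 1.53 ± 0.761 CPM in Cre CON (log2 fold change -1.14, edgeR adjusted p = 0.13), a level near 1 CPM at which counting error adds to the spread. Clock averaged 21.6 CPM in CEK and 17.7 CPM in Cre CON (0.28, adjusted p = 0.16). Per1, whose promoter is printed above, was at 35.8 to 78.4 CPM in CEK and 59.7 to 91.1 CPM in Cre CON (-0.33, adjusted p = 0.18), and Per3, with its pair of D-boxes, at 37.4 to 57.5 CPM in CEK and 32.1 to 41.5 CPM in Cre CON (0.27, adjusted p = 0.092). Both overlapped between the groups. Per2 differed by -0.12, Cry1 by -0.25, Cry2 by -0.02, Nr1d1 by -0.29 and Ciart by 0.28.

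The PAR bZIP activators, which share the D-box with E4BP4, did not pass either. Dbp ranged from 70.9 to 100.5 CPM in CEK hearts (median 89.3) and from 57.6 to 120 CPM in Cre CON hearts (median 76.3), and the groups overlapped over most of their range. Its log2 fold change was 0.09 (edgeR adjusted p = 0.82). Tef averaged 184.97 CPM in CEK and 178 CPM in Cre CON (0.05), and Hlf 39.9 CPM in CEK and 34.6 CPM in Cre CON (0.20).

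Of 11 tested genes listed as D-box outputs, 4 were called (36.4%, against 7.25% of all genes): Rora, Nr1d2 and Usp2 higher and Alas1 lower, with a median log2 fold change of -0.12. The median was 0.23 between E4BP4 FLOX and WT, and -0.14 between CEK and E4BP4 FLOX. In the latter 0 of the 11 were called, against 0.876% of all genes, with 1 at an unadjusted p under 0.05 in edgeR. Usp2, a deubiquitinase, averaged 232 CPM in CEK and 188 CPM in Cre CON (0.30, edgeR adjusted p = 0.022), beside 250 CPM in E4BP4 FLOX and 211 CPM in WT. Alas1, the first enzyme of haem synthesis, averaged 154 CPM in CEK and 214 CPM in Cre CON (-0.47, edgeR adjusted p = 0.049). Its means were 180 CPM in E4BP4 FLOX and 211 CPM in WT. The Usp2 call was lost without CEK replicate 4 or 5 or Cre CON replicate 6, and the Alas1 call held only without CEK replicate 2 or Cre CON replicate 5. The count of 4 was 1 without CEK replicate 4, and 2 without CEK replicate 5 or Cre CON replicate 2 or 6, and no member was called without CEK replicates 4 and 5 together.

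Of 16 E-box outputs 4 were called, all higher (25.0%, against 4.07% of all genes): Nampt and Wee1, and Nr1d2 and Usp2, which are also on the D-box list. The median log2 fold change of the list was 0.13, beside 0.22 between E4BP4 FLOX and WT. Between CEK and E4BP4 FLOX it was -0.17. Wee1, the kinase that holds CDK1 inactive before mitosis, was at 23.0 to 30.3 CPM in CEK hearts (median 26.9), against 16.1 to 23.7 CPM in Cre CON hearts (median 17.7). The groups overlapped in their extremes. The log2 fold change was 0.52 (SE 0.11, edgeR adjusted p = 0.0039), with a line difference of 0.13. Without CEK replicate 4, 2 of the 16 were called.

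In promoters, the share with a D-box was 2.34% (9 of 385) for genes higher in CEK, 2.73% (10 of 366) for genes lower in CEK and 1.58% for the 10844 genes tested that have a promoter entry, and 1.78% of all 32851 promoters. Of the genes called against both controls, 25 besides Nfil3 had an entry and 0 held one of these letters in this window. The E-box CACGTG stood in 12.2% of promoters of higher genes, 9.29% of lower genes and 11.5% of all tested genes. A match is a run of letters and not a measured site.

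Of the 22 tested genes of NAD synthesis and use 2 were called (9.09%, against 7.25% of all genes). Nampt rose and Nadk, the NAD kinase, fell, and the median log2 fold change was 0.01. No other member was called. Nadk averaged 24.6 CPM in CEK and 32.6 CPM in Cre CON (-0.40, edgeR adjusted p = 0.012). Of the triglyceride and lipid synthesis genes, 6 of 31 were called (19.4%, against 7.25% of all genes), Ces1d higher and Dgat2, Agpat2, Pnpla2, G0s2 and Srebf1 lower, with a median of -0.14. Srebf1, the SREBP1 regulator of lipid synthesis, was at 14.3 to 31.1 CPM in CEK hearts (median 27.0), against 30.2 to 59.5 CPM in Cre CON hearts (median 43.5), with little overlap and a log2 fold change of -0.80 (adjusted p = 0.0067). For Srebf1 the line difference was -0.46, and for G0s2, an inhibitor of the lipase ATGL, -0.49 beside -0.60 between CEK and Cre CON (35.9 and 54.5 CPM). Pnpla2, which encodes ATGL itself, averaged 364 CPM in CEK and 442 CPM in Cre CON (-0.28), a call lost without CEK replicate 4 or 6 or Cre CON replicate 1, 2 or 3. The list count of 6 was 3 without CEK replicate 6 or Cre CON replicate 2.

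In fatty acid uptake and oxidation 3 of 40 were called (7.50%, near the 7.25% of all genes), Lpl and Etfb higher and Acacb lower. Lpl, the lipoprotein lipase, averaged 6735 CPM in CEK and 5189 CPM in Cre CON (0.38), with 6529 CPM in E4BP4 FLOX and 5680 CPM in WT, and its call was lost without CEK replicate 4. Without CEK replicate 4 the list had 1 call, and without CEK replicate 2 it had 5. In glucose and glycogen metabolism 3 of 37 were called (8.11%, near the 7.25% of all genes), Slc2a4, Pgk1 and Mpc1, all lower. The median of that list was -0.11, and 8 were called without CEK replicate 2. Of 40 nuclear-coded subunits of oxidative phosphorylation 2 were called (5%, below the 7.25% of all genes), Ndufb5 and Uqcrb, both higher. That count was 4 without CEK replicate 2 or 3, 0 without CEK replicate 6, and 1 without CEK replicate 4 or 5 or Cre CON replicate 1, 5 or 6. Of the 11 tested mitochondrially encoded protein genes 1 was called (9.09%, against 7.25% of all genes), and the median was -0.30. For mt-Co1, the called member, levels were 38350 to 69650 CPM in CEK and 60530 to 83230 CPM in Cre CON (-0.38, edgeR adjusted p = 0.044), a call that held only without CEK replicate 1, 2 or 3 or Cre CON replicate 6. The mitochondrially encoded protein genes together, without the mitochondrial ribosomal RNAs, took 10.02 to 24.3% of assigned counts in CEK libraries and 22.4 to 26.0% in Cre CON libraries.

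Insulin and PI3K signalling held 6 calls in 30 genes (20%, against 7.25% of all genes), and this count stayed within 1.5-fold with any library left out. Pik3ca, the catalytic subunit of PI3K, was at 50.5 to 78.1 CPM in CEK hearts (median 60.6), against 43.2 to 47.2 CPM in Cre CON hearts (median 44.3), and Pik3r1, Foxo1 and Foxo3 were higher as well. Akt1, the kinase downstream of PI3K, was at 109 to 178 CPM in CEK hearts (median 151), against a median of 192.95 and a highest value of 216 CPM in Cre CON hearts, and Akt2 was also lower. Neither Pik3ca nor Akt1 overlapped between the groups. The log2 fold changes were 0.45 for Pik3ca (edgeR adjusted p = 0.0018) and -0.42 for Akt1 (adjusted p = 0.005), with line differences of 0.21 and -0.24. With an offset for GC content and length, the calls of Pik3ca, Akt1 and Foxo1 were lost and 3 of the 30 were left.

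The sarcomere list had 2 calls in 23 genes (8.70%, near the 7.25% of all genes), Ttn and Nebl, both higher. Ttn, the giant spring protein titin, was at 2779 to 10800 CPM in CEK hearts (median 4511), against 2258 to 2441 CPM in Cre CON hearts (median 2377). All CEK hearts lay above the Cre CON hearts, with a wide spread among them and CEK replicate 4 at the top. The log2 fold change was 1.14 (SE 0.22, edgeR adjusted p = 0.0047), the line difference was 0.59, and the Ttn call was lost in a fit of the 12 libraries alone and with an offset for GC content and length. The count of 2 was 6 without CEK replicate 2, 4 without CEK replicate 3, and 1 without CEK replicate 4, 5 or 6 or Cre CON replicate 1, 2 or 3.

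Ion channel and calcium handling genes had 11 calls in 43 (25.6%, against 7.25% of all genes), 5 higher and 6 lower, with a median of -0.02. Ryr2, the calcium release channel, was at 715 to 1257 CPM in CEK hearts (median 843), against 580 to 672 CPM in Cre CON hearts (median 633). No value overlapped, and the log2 fold change was 0.49 (edgeR adjusted p = 0.0024). Trdn, which anchors that channel complex, Kcnd2, Kcnj2 and Camk2d were higher too. Hcn2, a pacemaker channel, averaged 24.2 CPM in CEK and 35.3 CPM in Cre CON (-0.54, edgeR adjusted p = 0.0046). Its means were 25.4 CPM in E4BP4 FLOX and 27.97 CPM in WT, so Cre CON stood highest and CEK lay near its littermates. Kcna5, Kcnj11, Kcnj12 and Jph2 were lower in CEK than in Cre CON as well. For Ryr2 the line difference was 0.37, with 857 CPM in E4BP4 FLOX and 662 CPM in WT. The Trdn call was lost without CEK replicate 4 or 5, and the count of 11 was 3 without CEK replicate 4, 7 without CEK replicate 6 and 6 without Cre CON replicate 1 or 2.

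Of 23 tested hypertrophy and fetal genes 5 were called (21.7%, against 7.25% of all genes), Xirp2 and Mef2c higher and Xirp1, Flnc and Gata4 lower. Gata4, a cardiac transcription factor, was at 64.0 to 102 CPM in CEK hearts (median 83.0), against 107.8 to 123.1 CPM in Cre CON hearts (median 110.2). No value overlapped (log2 fold change -0.44, edgeR adjusted p = 0.0047, line difference -0.12). Mef2c, another cardiac transcription factor, averaged 59.2 CPM in CEK and 44.8 CPM in Cre CON (0.40, edgeR adjusted p = 0.0097). Its means were 59.1 CPM in E4BP4 FLOX and 49.1 CPM in WT. The count was 3 without CEK replicate 4 or Cre CON replicate 2 or 3.

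Of 38 extracellular matrix genes, 9 fell in CEK relative to Cre CON (23.7%, against 3.17% of all genes called lower) and none rose, with a median log2 fold change of -0.29. Col1a1, a chain of type I collagen, was at 65.9 to 126 CPM in CEK hearts (median 93.8), against 110 to 168 CPM in Cre CON hearts (median 148), with overlap (-0.58, edgeR adjusted p = 0.035). Bgn, the proteoglycan biglycan, averaged 199 CPM in CEK and 283 CPM in Cre CON (-0.51, adjusted p = 0.022), and Col1a2, Col6a1, Col6a2, Fn1, Eln, Mmp2 and Tgfb1 made up the rest. Of the 38, 30 had their highest group mean in Cre CON and 13 their lowest in CEK, and of the 9 called, all were highest in Cre CON and 8 were lowest in CEK. The summed mean of the list was 2798 CPM in CEK, 2761 CPM in E4BP4 FLOX, 3309 CPM in Cre CON and 2773 CPM in WT. Col1a1 averaged 94.3 CPM in CEK, 105 CPM in E4BP4 FLOX, 141 CPM in Cre CON and 100.8 CPM in WT. CEK and E4BP4 FLOX hearts differed by a median of 0.05 over the list. The count of 9 was 4 without CEK replicate 4 or Cre CON replicate 2 and 3 without CEK replicate 5 or 6 or Cre CON replicate 3 or 6, and no member was called without CEK replicates 4 and 5 together. With only the 12 libraries compared, and likewise with an offset for GC content and length, 1 of the 38 was called, and Col1a1, Col1a2, Bgn, Col6a1, Mmp2 and Tgfb1 did not pass in either.

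Markers of cell types were used to see whether the tissues differed in makeup. Of 15 cardiomyocyte markers 3 were called (20%, against 7.25% of all genes), Ryr2 higher and Gata4 and Ckm lower. Their median was 0.00, and their summed level was 61479 to 76304 CPM in CEK and 60982 to 70026 CPM in Cre CON. Of 14 fibroblast markers 3 were called (21.4%, against 7.25% of all genes), all lower, with a median of -0.19. Summed levels of the fibroblast markers were 2370 to 2885 CPM in CEK and 2794 to 3717 CPM in Cre CON. Their summed means were 2689 CPM in CEK, 2661 CPM in E4BP4 FLOX, 3037 CPM in Cre CON and 2727 CPM in WT. CEK and E4BP4 FLOX hearts differed by a median of 0.08 over these markers. Of the 3 called fibroblast markers, Col1a1 and Col1a2 are also on the matrix list. The fibroblast count was 1 without CEK replicate 4, 5 or 6 or Cre CON replicate 2, 3 or 6. The part of cell makeup in the matrix result was not tested.

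Of 16 endothelial markers Flt1 was called, higher (6.25%), and of 12 mural cell markers Notch3, lower (8.33%), both near the 7.25% of all genes. The endothelial count was 0 without CEK replicate 4, 5 or 6 or Cre CON replicate 2 or 6, and 2 or 3 without CEK replicate 1, 2 or 3 or Cre CON replicate 5. The mural count was 2 without CEK replicate 3 or Cre CON replicate 4 or 5. Macrophage markers had a median of -0.24 and summed levels of 336 to 452 CPM in CEK and 420 to 563 CPM in Cre CON. Their median was -0.23 between E4BP4 FLOX and WT, and 0.35 between CEK and E4BP4 FLOX. Of the 19, 3 were called higher in CEK than in E4BP4 FLOX, where 0.348% of all genes were. Summed means were 403 CPM in CEK, 311 CPM in E4BP4 FLOX, 475 CPM in Cre CON and 359 CPM in WT. Between CEK and Cre CON edgeR called 0 of the 19, with 7 at an unadjusted p under 0.05, and DESeq2 called 1. Without CEK replicate 2 edgeR called 2, and without CEK replicate 5 or Cre CON replicate 4 or 5 it called 1. Of the markers of lymphocytes (8), red cells (8), adipocytes (8) and mesothelium (9), edgeR and DESeq2 called 0, with 2, 1, 2 and 0 at an unadjusted p under 0.05 in edgeR. Atrial markers summed to 216 to 3195 CPM in CEK and 179 to 2650 CPM in Cre CON, so their level varied over a wide range within both groups. Their median log2 fold change was 0.63, 11 of 13 had their highest group mean in CEK, and the summed mean was 2176 CPM in CEK and 1399 CPM in Cre CON. Of 13 atrial markers Nr2f2 was called, higher (7.69%, near the 7.25% of all genes). Its call was lost without CEK replicate 4, 5 or 6 or Cre CON replicate 1, 2 or 6.

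The lists of responses to damage can be read against the 7.25% of all genes called. In the p53 response edgeR called 0 of 19 genes with 2 at an unadjusted p under 0.05, DESeq2 called 1, and edgeR called 1 without CEK replicate 2, 3 or 5. In the integrated stress and unfolded protein response edgeR called 0 of 29 with 4 at an unadjusted p under 0.05, DESeq2 called 0, and edgeR called 1 without CEK replicate 1 and 2 without CEK replicate 3. Of 28 antioxidant and glutathione genes, Gsta4 rose and Sod3, the extracellular superoxide dismutase, fell. Sod3 was at 28.1 to 52.0 CPM in CEK hearts (median 40.4), against 46.6 to 86.3 CPM in Cre CON hearts (median 65.5). The groups overlapped, and the log2 fold change was -0.68 (edgeR adjusted p = 0.0024) with a line difference of -0.06. The antioxidant count of 2 was 1 without CEK replicate 2, 4 or 5 or Cre CON replicate 2, 3, 5 or 6. Of 30 interferon response genes Rsad2 was called, and the median was 0.17. The Rsad2 call held only without CEK replicate 2 or 3 or Cre CON replicate 1 or 2, and the interferon count was 5 without CEK replicate 2, 3 without CEK replicate 3 and 0 without CEK replicate 4, 5 or 6 or Cre CON replicate 3, 4, 5 or 6.

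**Figure D4:**
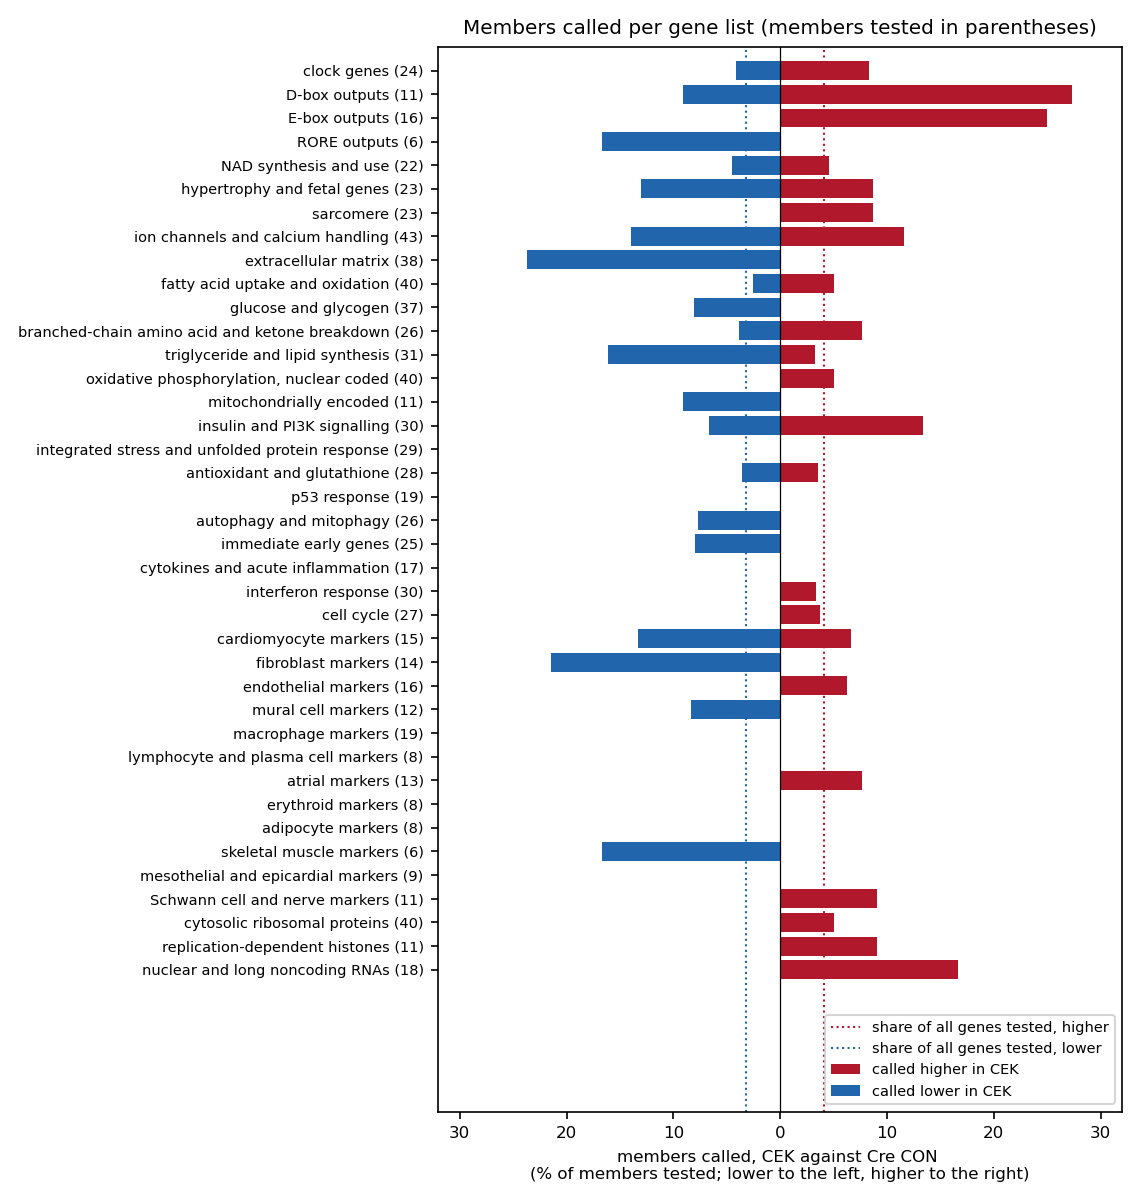
Percent of tested members called higher (right) and lower (left) in CEK against Cre CON in each gene list, with the number tested in parentheses and dotted lines for all genes tested (4.07% and 3.17%). Extracellular matrix has 9 lower and no higher calls in 38 genes, and insulin and PI3K signalling has 4 higher and 2 lower in 30.

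Among the genes described, the largest rises were those of small noncoding RNAs, in which E4BP4 FLOX stood above WT as well. Rnu3a, a U3 small nucleolar RNA that takes part in ribosomal RNA processing, averaged 3.35 CPM in CEK and 0.0353 CPM in Cre CON (log2 fold change 6.35), Snord17 2.77 and 0.0610 CPM (5.36) and the small Cajal body RNA Scarna2 8.02 and 0.207 CPM (5.16). Mir6236 averaged 413 CPM in CEK and 20.1 CPM in Cre CON (4.35). Lars2, annotated as the mitochondrial leucyl-tRNA synthetase, was at 4304 to 41690 CPM in CEK hearts (median 16235), against 1094 to 1806 CPM in Cre CON hearts (median 1281). The groups did not overlap, and the CEK hearts spread over a wide range. The log2 fold change of Lars2 was 3.73 (SE 0.44, edgeR adjusted p = 5.1e-05), and E4BP4 FLOX exceeded WT by 3.12 (adjusted p = 0.00073), so the difference was present with E4bp4 intact.

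By class, 4 of 5 small Cajal body RNAs and 4 of 11 small nucleolar RNAs were higher in CEK, as were 69 of 317 transcripts annotated as needing experimental evidence (21.8%), against 465 of 13137 protein-coding genes (3.54%). These transcripts had a median log2 fold change of 0.78 between CEK and Cre CON and of 0.44 between E4BP4 FLOX and WT. Malat1, an abundant nuclear RNA, averaged 1269 CPM in CEK and 609 CPM in Cre CON (1.06), a call that held only without CEK replicate 1, 2 or 3 or Cre CON replicate 4. Kcnq1ot1, an imprinted antisense RNA retained in the nucleus, averaged 32 CPM in CEK and 15.8 CPM in Cre CON (1.00, edgeR adjusted p = 0.0082), with a line difference of 0.60. Among the lowest called genes were Sox30, a transcription factor gene known from the testis (0.151 CPM in CEK and 1.11 CPM in Cre CON, -2.94), and Sik1, a salt-inducible kinase (18.1 and 37.4 CPM, -1.04). The Sik1 call was lost without CEK replicate 4, 5 or 6 or Cre CON replicate 1 or 2.

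Among protein-coding genes the direction of the call followed GC content. Genes were divided into deciles of GC content, numbered from the lowest. In the 3 lowest deciles 295 genes were higher in CEK and 8 were lower, and in the 3 highest 19 were higher and 342 were lower. The median log2 fold change was 0.13 in the lowest decile and -0.14 in the highest. Between E4BP4 FLOX and WT the same medians were 0.04 and -0.05. Across 13135 genes, as a description, Spearman's rho of the log2 fold change with GC content was -0.36 for CEK against Cre CON and -0.17 for E4BP4 FLOX against WT. With log2 transcript length, rho was 0.08 and 0.24 in the same order. The decile of the longest transcripts held 179 higher and 28 lower, and that of the shortest 30 higher and 9 lower. With an offset for GC content and length, 519 genes were called, of which 365 were among the 1084, and the 3 lowest deciles held 48 higher and 43 lower, and the 3 highest 84 higher and 68 lower. The part of base composition, transcript length, library composition and line in any 1 gene's difference was not tested.

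**Figure D5:**
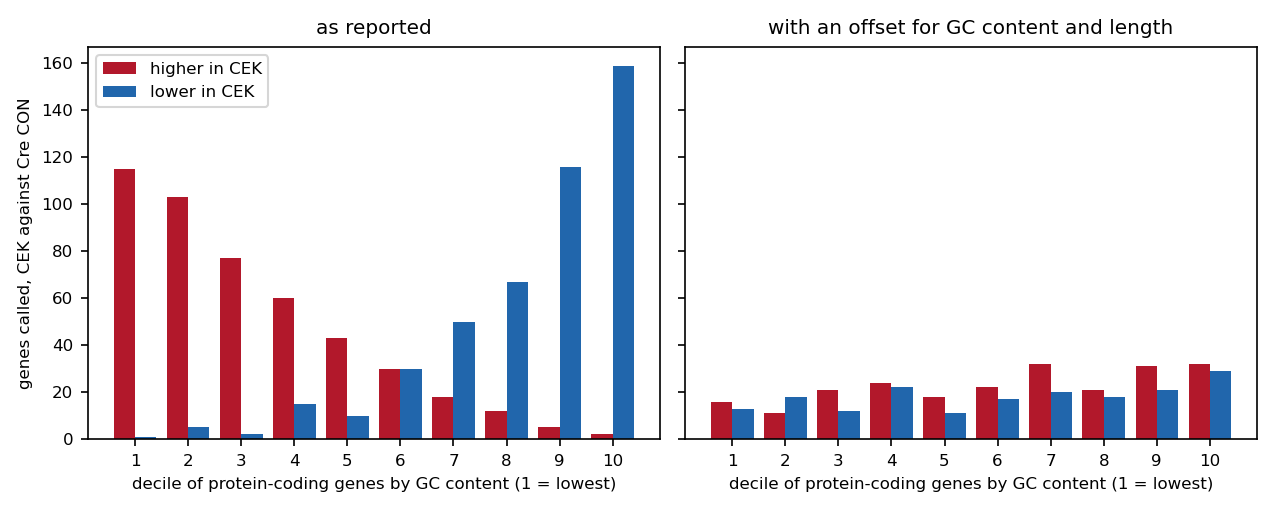
Protein-coding genes called higher and lower in CEK against Cre CON in each decile of GC content, from the lowest to the highest, as fitted and with an offset for GC content and length. As fitted, the 3 lowest deciles hold 295 higher and 8 lower, and the 3 highest 19 higher and 342 lower.

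Across 25 alternatives, all but a fit that takes the ENSMUSG00000119584 level of each library as a term, 94 genes were called the same way in every one, 60 higher and 34 lower. Of these 94, 68 are protein coding, and 65 of the 68 had the same sign between E4BP4 FLOX and WT. The 94 include 9 of the 39 genes called against both controls: Nfil3, Nampt, Ces1d, Gm33424, Atp8a1 and Mtus2, and among the lower ones Dmpk, Rbm38 and Bcl9l. With that term, whose values do not overlap between the lines, the CEK comparison called 1 gene.

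A pair of groups outside the model allows the same genes to be seen on another background. In hearts without Bmal1, the CBK/CEK mice lost E4bp4 as well (Bmal1 flox/flox, E4bp4 flox/flox, Cre +/-), while CBK mice (Bmal1 flox/flox, Cre +/-) kept it, and the comparisons above use none of these libraries. The mice are again of different lines. In a fit of all 48 libraries 128 of 16623 genes (0.770%) were called between them. Of the 38 genes called against both controls besides Nfil3, 4 were called the same way, 1 the opposite way, and 19 had the same sign. Nampt averaged 129 ± 18.5 CPM in CBK/CEK and 41.0 ± 4.92 CPM in CBK (SD, n = 6 each), a log2 fold change of 1.66 (edgeR adjusted p = 1.3e-16). Ces1d averaged 95.4 CPM in CBK/CEK and 8.94 CPM in CBK (3.42), Gm33424 9.04 and 1.62 CPM (2.49) and Atp8a1 24.2 and 13.1 CPM (0.89). Dgat2 went the other way, with 143 CPM in CBK/CEK and 100.2 CPM in CBK (0.52, adjusted p = 0.011).

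Nampt, Ces1d, Gm33424 and Atp8a1 were thus higher in both comparisons in which E4bp4 was lost and Cre was held constant, on an intact and on a Bmal1-deleted background. Nfil3 itself averaged 1.83 CPM in CBK/CEK and 38.9 CPM in CBK. Against the double-floxed littermates BMAL1/E4BP4 FLOX, the same CBK/CEK libraries had less Nampt (-0.53) and Ces1d (-0.90) and more Gm33424 (1.51), while Atp8a1 did not pass (-0.12, edgeR adjusted p = 0.67). In that comparison Bmal1 is lost as well and 5.86% of all genes were called, and of the 38 genes 25 had the same sign, 8 were called the same way and 4 the opposite way.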

How the data were processed

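RNA from the ventricles of 48 mice was extracted with RNeasy Mini Plus, and libraries were prepared from 1.3 ug of total RNA per animal (SMARTER mRNA-Seq kit), per the labels. The authors deposited raw counts per gene and library, for which the submitters' processing notes name build GRCm39 and the tools HTSeq 0.11.1, STAR 2.7.9a and bcl2fastq 2.18.0.12. Annotation release and strandedness: not given in the sources used here.

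The 5 summary lines of HTSeq were left out of the totals. Of 53700 genes, 52147 (97.1%, with 95.1% of counts) were matched by identifier to GENCODE M21 of build GRCm38, which served for names, classes, GC content, length and neighbour order only. Genes were kept by filterByExpr (14962), scaled by TMM and entered into the robust quasi-likelihood model of edgeR 4.0.16 (R 4.3.3) as 4 group means over 24 libraries with 20 residual degrees of freedom. Benjamini-Hochberg adjustment ran over all genes tested, with calls under 0.05. The p-values refer to the spread among the animals sampled, estimated over the 4 groups together, while the CEK libraries spread more than the Cre CON libraries. Fold changes are tested over control on the log2 scale.

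The genes named are Nfil3, Myh6, the clock genes, the called genes with a group mean of 1 CPM or more that had the 15 largest rises and 15 largest falls, the 4 called members of each list with the smallest p, genes called in the difference of Cre effects, and the 39 called against both controls. Other members named in the text complete a count. The groups, the 40 gene lists and the tests were chosen with earlier results of these data known. Alternatives were another normalisation, filters, sets of libraries, a replicate block, covariates, a GC and length offset, DESeq2 1.42.0 and limma 3.58.1 voom. The fits were also run on simulated data, the outcome of which is not given. A member of the ion channel list is not reported here.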

Additional observations from a re-analysis of the deposited data

Results flagged for a closer look

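In 5 of 178 groups of 6 libraries looked at, 1 library stood apart from the other 5, where chance gives about 1 in 20. Ryr2 in CEK replicate 4 was at 1257 CPM, with 714.5 to 888.1 CPM in the other CEK hearts. Ttn in CEK replicate 4 was at 10800 CPM, with 2779 to 5220 CPM in the other CEK hearts. In Cre CON replicate 3, Mtus2 was at 187.8 CPM beside 136.3 to 146.5 CPM in the other Cre CON hearts, and in Cre CON replicate 6 Gata4 was at 123.1 CPM beside 107.8 to 112.8 CPM. WT replicate 1 held 126338949 assigned counts, with 17712657 to 18297589 in the other WT libraries.

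The Cre effect differed between the E4bp4 line and the Cre line, by an edgeR test of the difference itself, in Nfil3 (-3.57 on the log2 scale) and Nampt (0.67). Nfil3 was lower in 6 of 6 CEK hearts than in any Cre CON heart, and Nampt was higher in 6 of 6. In this test the Nampt call was lost without CEK replicate 1 or 3 or Cre CON replicate 2, 3 or 6.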

How the results depend on the processing

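Calls between CEK and Cre CON were 256 with only the 12 libraries compared, 390 with all 48 libraries, 251 without CEK replicates 4 and 5, 519 with a GC and length offset, 594 with limma voom, 1 with the ENSMUSG00000119584 level as a covariate, and 484 to 1631 with 1 library left out, against 1084. E4BP4 FLOX against WT gave 62, 0 with all 48 libraries, 17 without the deepest WT library, 0 with the covariate, 64 with DESeq2, 55 with voom and 11 to 33 with 1 library left out, against 31. CEK against E4BP4 FLOX gave 25 with its 12 libraries, 51 with all 48, 56 without CEK replicates 4 and 5, 28 with the covariate, 340 with DESeq2, 9 with voom and 41 to 352 with 1 library left out, against 131. The difference of Cre effects gave 1 with all 48 libraries, 1 with the replicate block, 4 with DESeq2 and 1 to 3 with 1 library left out, against 2. Of the genes beside Nfil3, 0 were called with the covariate, 2 with the animal-number cohort, 3 with the offset, 2 with DESeq2 and 1 to 2 with 1 library left out, against 1. Between CEK and Cre CON the count stayed within 1.5-fold at 1089 with RLE, 1109 with library sizes that leave out mitochondrial genes and ENSMUSG00000119584, 913 without a filter, 1096 at 1 CPM, 975 without the deepest WT library, 1337 with the cohort and 1462 with DESeq2.

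The replicate block gave 847 calls between CEK and Cre CON. Same-numbered CEK and Cre CON libraries had correlations of -0.16 to 0.26 in their deviations from the group means, so the numbers do not pair the animals. 

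With the ENSMUSG00000119584 level as a covariate, the log2 fold change turned its sign in 32 of the genes described, 6 of them not called as reported (Arntl 1.04, Clock -0.38, Per1 0.32, Per3 -0.012, Nr1d1 0.83 and Hlf -0.088) and 26 called: Rbm38 0.17, Bcl9l 0.13, Slc2a4 0.14, Wnk2 0.063, Bckdha 0.21, Kcnj11 0.27, Dgat2 0.090, Nr1d2 -0.12, Ryr2 -0.26, Ttn -0.97, Hcn2 0.0027, Gata4 0.024, Mef2c -0.11, Ckm 0.16, Col1a1 0.27, Col6a1 0.029, Srebf1 0.023, Pnpla2 0.24, Lars2 -0.89, Scarna2 -0.89, Mir6236 -0.92, Malat1 -1.37, Kcnq1ot1 -0.49, mt-Co1 0.22, Sik1 0.13 and Nr2f2 -0.075. That level does not overlap between the lines, so this fit rests on the spread of the level within a group, and the cause was not tested. Of 61 called genes looked at, 41 stayed called with each CEK and Cre CON library left out in turn. Depth limits the genes near 1 CPM, where counting error adds to the spread.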

Other observations

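Branched-chain amino acid and ketone genes split in direction, with 3 of 26 called between CEK and Cre CON (11.5%, against 7.25% of all genes). Dbt, a further subunit of the complex that holds Bckdha, averaged 56.1 CPM in CEK and 45.3 CPM in Cre CON (log2 fold change 0.31), and Ppm1k, the phosphatase that activates the complex, averaged 82.1 CPM in CEK and 65.8 CPM in Cre CON (0.32), while Bckdha was lower. The count was 1 without CEK replicate 4. Autophagy and mitophagy had 2 of 26 called, both lower: Lamp1, a lysosomal membrane protein, averaged 241 CPM in CEK and 291 CPM in Cre CON (-0.27), and Atg9a 14.2 and 21.7 CPM (-0.60). Among immediate early genes 2 of 25 were called, Klf2 (58.2 CPM in CEK and 87.6 CPM in Cre CON, -0.59) and Klf4 (34.9 and 49.9 CPM, -0.52), both lower and both near the threshold. For cytosolic ribosomal proteins 2 of 40 were called, both higher, Rpl5 at 0.36 and Rps20 at 0.44. Ccnd2, cyclin D2, was the call among 27 cell cycle genes, with 102 CPM in CEK and 78 CPM in Cre CON (0.38). The shares called were 7.69% for autophagy and mitophagy, 8% for immediate early genes, 5% for ribosomal proteins and 3.70% for the cell cycle. All of these were near or below the 7.25% of all genes. The autophagy count was 1 without any of the 12 libraries but CEK replicates 2 and 3. The immediate early count was 0 or 1 without any but Cre CON replicates 4 and 5, and the ribosomal count was 0 or 1 without any but CEK replicates 2 and 3. The Ccnd2 call held only without CEK replicate 1, 2 or 3 or Cre CON replicate 3 or 4.

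Called genes were spread over the genome. Between 5.87% (chromosome 16) and 8.38% (chromosome 19) of tested genes on the numbered chromosomes were called, and on chromosome 13, which holds Nfil3, 7.0% of 557. Higher calls outnumbered lower ones on chromosome 13 (31 and 8) and on chromosome 1 (57 and 17), and lower ones were more frequent on chromosome 11 (32 higher and 55 lower) and chromosome 7 (28 and 54).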
